A study of Mus musculus with 12 samples.

Results

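The genes described are the 5 subunits of the NF-kappaB transcription factor (Nfkb1, Nfkb2, Rel, Rela and Relb) and 5 inhibitor and feedback genes of the same pathway (Nfkbia, Nfkbie, Nfkbid, Bcl3 and Tnfaip3). They were chosen by name and matched on the Entrez identifier, which found 10 of 10 among the 27179 genes counted, and all 10 passed the filter on low counts. RNA-seq was done on leukemia cells of ALL101, a single primary mouse T-cell acute lymphoblastic leukemia (T-ALL) carrying Vav-tTA and TRE-GFP-shIkaros. In this system a transactivator driven by the blood-cell promoter Vav switches on a hairpin RNA against Ikaros that is linked to GFP, and doxycycline (Dox) switches the hairpin off. Recipient mice bearing ALL101 were left untreated (3 mice, cells labelled GFPhigh) or given Dox for 3 days (3 mice, cells labelled GFPmid). The cells were taken from spleens, and every mouse has 2 sequencing runs of its RNA.

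All 6 mice carry the same leukemia, so the replicates are recipients and not separate tumours. The sources used here give neither age nor strain of the recipients. The p-values measure the spread between these recipients. The GFP gate differs between the groups in the same way as the treatment, and no library comes from a hairpin-free leukemia given Dox, so the restored Ikaros, the gate and Dox itself cannot be told apart. Summed over runs, the libraries held 29904744 to 33063390 counts in untreated mice and 33899095 to 44949303 in Dox mice. Ikzf1, the gene that encodes Ikaros, was at 150 to 159 CPM (read counts divided by the TMM-scaled library size) in untreated mice and at 1438 to 1523 CPM in Dox mice, the direction of the labels. T-cell markers were abundant in every library (8 genes, 5218 to 6029 CPM in sum), and the B-cell list (8 genes) summed to 1.107 to 1.596 CPM in untreated and 1.798 to 2.967 CPM in Dox mice. In that list Ms4a1, Pax5 and Ebf1 had under 3 counts in every mouse, and of the 4 tested genes Cd22 was called higher (0.1836 to 1.013 CPM). Of 7 erythroid markers 3 were called higher and 0 lower, and the globin genes Hba-a1, Hba-a2 and Hbb-bs did not pass. The 7 genes summed to 13.1, 7.38 and 52.9 CPM in the untreated mice and to 82.2 to 112 CPM in Dox mice. Untreated mouse 3, whose library name carries INJ where the others say sort, was the highest of its group. Whether its cells were sorted like those of the other mice is not known. Summed myeloid markers (10 genes) were at 26.5 to 46.6 CPM in untreated and 70.7 to 93.2 CPM in Dox mice, but the list divided: 5 genes were called higher, among them Itgam (9.86 to 44.1 CPM) and Csf1r, and 3 lower, S100a8, S100a9 and Mpo. Summed dendritic-cell markers (8 genes) were at 32.7 to 40.6 and 19.2 to 26.8 CPM, most of it H2-Ab1, which was called lower (34.1 to 19.3 CPM), while Flt3 was called higher (0.4399 to 1.496 CPM). Summed markers of stroma and endothelium (6 genes) were at 233 to 320 CPM in untreated and 248 to 294 CPM in Dox mice. Of the 4 tested, 3 were called higher (Pecam1, Col1a1 and Vcam1) and Pdgfrb was called lower (136 to 17.9 CPM). The part of any of these cell types in the changes below was not tested. A lower level in bulk RNA can reflect fewer cells with the transcript or less of it per cell, which cannot be told apart.

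NF-kappaB acts as pairs of Rel-family proteins that bind short DNA elements called kappaB sites. In resting T cells the pairs are held inactive by inhibitors of the IkappaB family. Signals from the antigen receptor or from receptors of the TNF family activate the IkappaB kinase (IKK), which marks the classical inhibitors for destruction and frees the pairs to enter the nucleus. Several of the genes that NF-kappaB switches on encode its own subunits and inhibitors, so that the levels of these mRNAs are often read as a sign of pathway activity. In T-ALL the pathway is known to be engaged downstream of Notch.

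After Dox, 6 of the 10 genes were higher and 2 lower (edgeR's quasi-likelihood test, Benjamini-Hochberg adjusted p under 0.05 over 13134 genes). Those that rose were Bcl3, Rel, Tnfaip3, Nfkbid, Nfkbia and Rela, and those that fell were Nfkb2 and Nfkb1. The genes that fell encode the precursor subunits. Of the other subunits, which carry a transactivation domain, Rela and Rel rose and Relb did not pass the test. Nfkbie did not pass either. Change was common in these cells: 50.0% of all tested genes passed, 24.8% higher and 25.2% lower, so the 8 of 10 passing has to be read against that share. The median log2 fold change was 0.41 over the 10 genes and -0.0037 over all tested genes. The groups of 3 mice did not overlap for 8 of the 10 genes, against 61.2% of all tested genes.

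**Figure D1:**
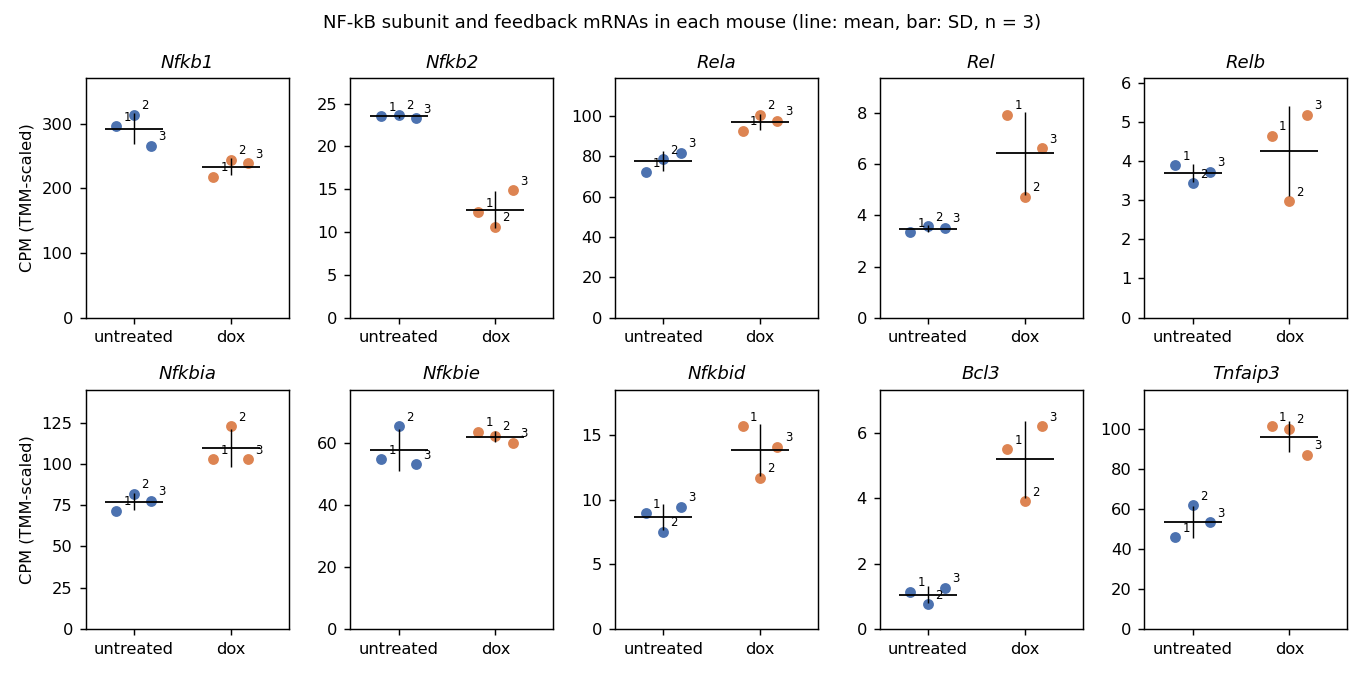
Level of each of the 10 mRNAs in CPM (vertical axes, each starting at 0) in the 3 untreated and 3 Dox mice, with numbered points for single mice, a line for the mean and a bar for the SD. The groups are apart in all panels except Relb and Nfkbie, and Dox mouse 2 is the lowest Dox mouse for Nfkb2, Rel, Relb, Nfkbid and Bcl3.

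The stretches just before a listed transcription start are shown for 5 of the genes. They hold matches to the 10-base kappaB consensus, the element through which the pathway is known to feed back on its own genes. Each is the 130 bases before the first start listed for the gene in RefSeq (GRCm38.p6), 5′ to 3′ on the strand of the gene. Every match to the kappaB consensus on either strand is in capitals. For Nfkb2 that start is 1 of 3 listed and lies inside the annotated gene, which begins at 46300994. The Nfkb2 stretch also lies within the overlapping gene 4833438C02Rik. For Tnfaip3 the start used is 1 of 2 listed. Nfkb2 (chromosome 19, 46304607 to 46304736, plus strand) fell, Rel (chromosome 11, 23770970 to 23771099, minus), Nfkbia (chromosome 12, 55492648 to 55492777, minus) and Tnfaip3 (chromosome 10, 19015411 to 19015540, minus) rose, and Nfkbie (chromosome 17, 45555570 to 45555699, plus) did not pass.
Nfkb2: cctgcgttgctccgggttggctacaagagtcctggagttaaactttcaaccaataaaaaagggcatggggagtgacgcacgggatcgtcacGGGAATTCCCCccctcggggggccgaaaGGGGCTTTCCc
Rel: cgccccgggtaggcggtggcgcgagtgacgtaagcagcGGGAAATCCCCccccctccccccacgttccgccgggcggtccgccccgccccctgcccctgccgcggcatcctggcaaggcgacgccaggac
Nfkbia: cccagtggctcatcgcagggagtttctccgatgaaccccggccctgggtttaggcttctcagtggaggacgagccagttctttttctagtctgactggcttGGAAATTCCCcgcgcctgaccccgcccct
Tnfaip3: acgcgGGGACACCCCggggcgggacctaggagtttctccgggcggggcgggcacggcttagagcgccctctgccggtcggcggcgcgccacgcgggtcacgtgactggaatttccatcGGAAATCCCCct
Nfkbie: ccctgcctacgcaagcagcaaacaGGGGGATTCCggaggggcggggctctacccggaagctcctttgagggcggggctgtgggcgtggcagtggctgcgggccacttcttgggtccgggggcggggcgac

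Start windows of 250 bases before to 50 after a start were listed for 8 of the 10 genes, in 13 windows. The kappaB consensus was found in 7 of the 8 genes, Rela being the exception, and in 9 of the 13 windows. It was found in 8.46% of all 32851 windows and in 9.55% of all 27025 genes with a window. The Nfkb2 window shown holds 3 match positions, of which 2 overlap, between 39 and 2 bases before the start. The match in Nfkbia lies 29 to 20 bases before the start, and 1 of the 2 in Tnfaip3 lies 12 to 3 bases before it. In Bcl3 the match starts 3 bases into the transcript, and in Nfkbid 2 positions lie 226 to 172 bases before the second of 3 listed starts. The gene with the largest rise, the gene with the larger fall and a gene that did not pass thus all carry the consensus. A match says only that these letters are present and not that a factor is bound. Over all tested genes with a window, 27% of 1204 with a match were higher and 24.3% lower, with a median log2 fold change of 0.010. Of the 8693 without a match, 24.4% were higher and 25.8% lower.

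A short core recognised by Ikaros-type zinc fingers, TGGGAA, was searched on both strands of the same windows. It was found in 3 of the 8 genes (Rel, Nfkbid and Tnfaip3) and in 28.3% of all genes with a window. In Nfkbid 1 of its matches overlaps the kappaB match, since the kappaB consensus can itself contain part of this core.

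**Figure D2:**
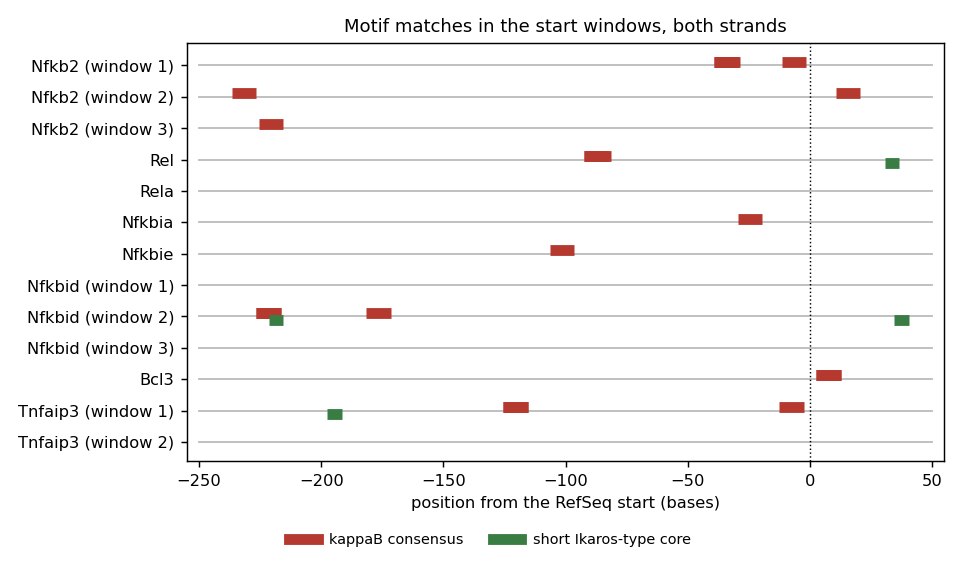
Positions of kappaB consensus matches (red) and matches to the short core TGGGAA (green) on either strand in each listed start window, drawn from 250 bases before to 50 bases after the RefSeq start (dotted line). Red marks lie close to the start in the first windows of Nfkb2 and Tnfaip3 and in Nfkbia and Bcl3, and Rela has no mark.

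Among the subunits, the precursor genes were the ones that fell. Nfkb1 (chromosome 3, 135584655 to 135691969 of GRCm38) encodes p105, which is processed to the DNA-binding subunit p50. It was at 296, 314 and 266 CPM in the untreated mice and 218, 245 and 239 CPM in the Dox mice, so that every Dox mouse lay below every untreated mouse. The mean fell from 292 ± 24.1 to 234 ± 13.8 CPM (SD, n = 3 each), a log2 fold change of -0.32 ± 0.08 (SE, edgeR adjusted p = 0.011). Without untreated mouse 2, the highest untreated mouse, the fold change was -0.27 and the adjusted p was 0.052.

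Nfkb2 (chromosome 19, 46300994 to 46312400) encodes p100, which holds Relb inactive until it is processed to p52 in the non-canonical branch of the pathway. It was at 23.5, 23.7 and 23.3 CPM in the untreated mice and at 12.3, 10.6 and 14.9 CPM in the Dox mice. The untreated mice were nearly alike and the Dox mice were all far below them. The log2 fold change was -0.90 ± 0.13 (edgeR adjusted p = 0.00083), which is 1.86-fold lower. In RefSeq, Nfkb2 overlaps the long noncoding gene 4833438C02Rik (6.89 CPM untreated, 9.91 CPM Dox) and part of Psd (2.70 and 1.53 CPM), and no source used here gives the strand setting of the counting, so reads in the shared stretches may have been assigned to either gene or dropped.

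Rela (chromosome 19, 5637442 to 5648134) encodes p65, the main transactivating partner of p50. It was at 72.3, 78.6 and 81.9 CPM in the untreated mice and 92.8, 100.6 and 97.8 CPM in the Dox mice. The groups did not overlap, and the rise was small: the log2 fold change was 0.32 ± 0.07 (edgeR adjusted p = 0.0066), from 77.6 ± 4.87 to 97.1 ± 3.96 CPM.

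Rel (chromosome 11, 23736847 to 23770969) encodes c-Rel, a transactivating subunit typical of lymphocytes that is known to be induced on T-cell activation. It was at 3.35, 3.58 and 3.53 CPM in the untreated mice and 7.94, 4.73 and 6.62 CPM in the Dox mice. The untreated mice were nearly alike, while the Dox mice were spread out above them, with Dox mouse 2 the lowest. The log2 fold change was 0.88 ± 0.21 (edgeR adjusted p = 0.0082), or 1.84-fold. These levels rest on few reads, 100 to 119 counts per untreated mouse and 213 to 288 per Dox mouse. The 2 runs of Dox mouse 3 gave 179 and 109 counts and those of untreated mouse 1 gave 39 and 61. With run 1 alone the log2 fold change was 1.06, and with run 2 alone it was 0.72 (adjusted p = 0.0095 and 0.035).

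Relb (chromosome 7, 19606217 to 19629438), the partner of p52 in the non-canonical branch, was at 3.89, 3.43 and 3.73 CPM in the untreated mice and at 4.65, 2.97 and 5.17 CPM in the Dox mice. Dox mouse 2 lay below all untreated mice and the other Dox mice lay above them. The log2 difference was 0.21 ± 0.23 with a 95% interval from -0.31 to 0.73 (edgeR adjusted p = 0.463). Leaving out single mice moved it between 0.05 without Dox mouse 3 and 0.43 without Dox mouse 2, and it passed in neither case (edgeR adjusted p = 0.875 and 0.082).

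**Figure D3:**
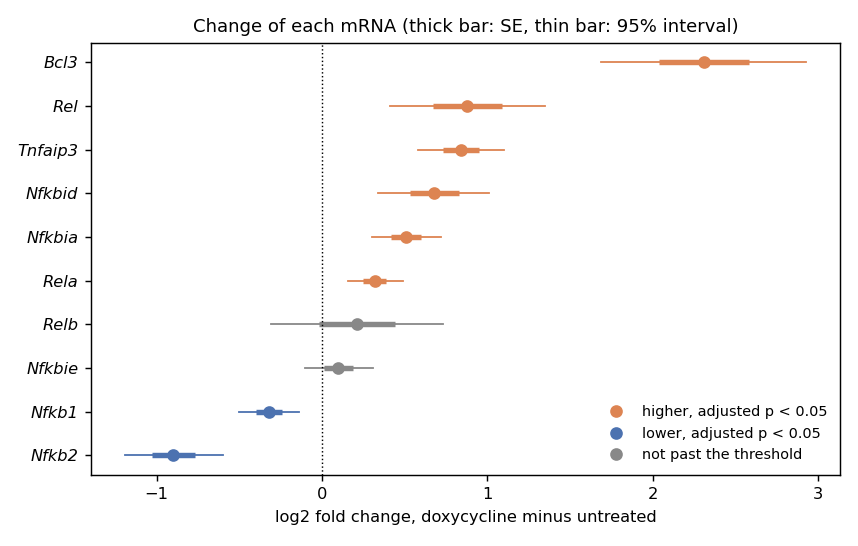
Log2 fold change (Dox minus untreated, horizontal axis) of each mRNA, with the SE as a thick bar and the 95% interval as a thin bar, coloured by the edgeR call. Bcl3 stands at 2.31, the other 5 genes that rose lie between 0.32 and 0.88, and Nfkb1 and Nfkb2 lie at -0.32 and -0.90.

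Levels can be set side by side between genes only per length, as RPKM with the deposited gene lengths. On that scale Nfkb1 was the most abundant of the 10 mRNAs in untreated mice (70.9 ± 5.85 RPKM), followed by Nfkbia (48.9 ± 3.27), Rela (28.6 ± 1.799), Nfkbie (23.8 ± 2.75) and Tnfaip3 (11.7 ± 1.74). Nfkb2 (7.14 ± 0.060), Nfkbid (4.30 ± 0.495), Relb (1.67 ± 0.105), Rel (1.35 ± 0.046) and Bcl3 (0.574 ± 0.145) were lower. Of neighbours in this order, only Rela and Nfkbie overlapped between mice. After Dox, Nfkbia came first (69.4 ± 7.30 RPKM) and Nfkb1 second (56.8 ± 3.35), with no overlap between their mice. The order below them was Rela (35.8 ± 1.46), Nfkbie (25.6 ± 0.728), Tnfaip3 (21.0 ± 1.72) and Nfkbid (6.87 ± 1.00). The last 4 genes, Nfkb2 (3.83 ± 0.656), Bcl3 (2.84 ± 0.642), Rel (2.49 ± 0.624) and Relb (1.94 ± 0.521), each overlapped with the next in the order.

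The make-up of the Rel-family mRNA pool differed accordingly. Nfkb1 made up 66.1%, 66.1% and 61.6% of the summed RPKM of the 5 subunits in the untreated mice and 55.1%, 57.7% and 56.0% in the Dox mice. Rela made up 24.5%, 25.2% and 28.8% in the untreated mice and 35.6%, 36.1% and 34.9% in the Dox mice. The mean share of Nfkb2 was 6.52 ± 0.256% against 3.80 ± 0.627%, and that of Rel 1.23 ± 0.059% against 2.48 ± 0.708%. Each of these 4 shares differed without overlap between the groups, at p = 0.1 in a two-sided exact permutation test over mice, the smallest p that 3 against 3 mice can give (0.125 after adjustment over the 5 shares). The share of Relb overlapped (1.53 ± 0.153% and 1.92 ± 0.532%, exact permutation p = 0.4). The summed level itself was 105 to 115 RPKM in untreated and 96.2 to 104 RPKM in Dox mice (exact permutation p = 0.1).

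**Figure D4:**
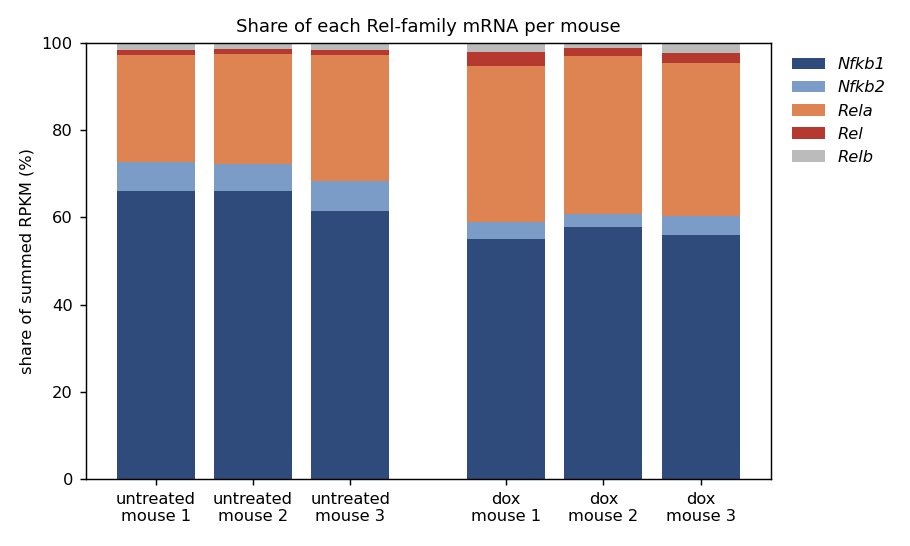
Share of each Rel-family mRNA in the summed RPKM of the 5 subunits (vertical axis, percent), 1 bar per mouse. The dark blue Nfkb1 block is shorter in all 3 Dox mice (55.1% to 57.7%) than in the untreated mice (61.6% to 66.1%), and the orange Rela block is taller (34.9% to 36.1% against 24.5% to 28.8%).

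Of the inhibitor genes, Nfkbia (chromosome 12, 55489409 to 55492647) encodes IkappaB-alpha, the classical inhibitor that is destroyed on stimulation and made again under NF-kappaB control. It was at 71.7, 82.0 and 77.7 CPM in the untreated mice and 103, 123 and 103 CPM in the Dox mice, with Dox mouse 2 the highest. The log2 fold change was 0.51 ± 0.09 (edgeR adjusted p = 0.0024), or 1.42-fold. Nfkbie (chromosome 17, 45555700 to 45563169) encodes the related inhibitor IkappaB-epsilon and was at 54.7, 65.3 and 53.1 CPM in the untreated mice and 63.5, 62.3 and 60.0 CPM in the Dox mice. Untreated mouse 2 lay above all Dox mice, and the log2 difference was 0.10 ± 0.09 with a 95% interval from -0.10 to 0.31 (edgeR adjusted p = 0.373). Nfkbib, a gene of the same kind outside the 10, was at 31.8 ± 0.467 and 30.6 ± 2.52 CPM (log2 difference -0.06 ± 0.09, edgeR adjusted p = 0.599), and the sign of that difference turned, to 0.01, with run 1 alone or without Dox mouse 1.

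Set against the subunits, the mRNA of the 3 classical inhibitors (Nfkbia, Nfkbie and Nfkbib, summed RPKM) was 0.774, 0.825 and 0.836 times that of the 5 subunits in the untreated mice. It was 1.10, 1.17 and 1.02 times in the Dox mice. On the log2 scale the ratio differed by 0.434 (-0.302 ± 0.060 and 0.132 ± 0.098), without overlap between the groups (two-sided exact permutation p = 0.1, the smallest possible). Nfkb1, which fell, made up a mean of 64.6% of the subunit sum in untreated and 56.3% in Dox mice, so it is most of the denominator. The mean subunit sum went from 109.7 to 100.8 RPKM. Above the line, Nfkbia went from 48.9 to 69.4 RPKM and Nfkbie from 23.8 to 25.6 RPKM. The part of each gene in the change of the ratio was not tested. A ratio to Rela, Rel and Relb alone, of which Rela and Rel rose, was not tested. The values are ratios of mRNA levels, and protein was not measured.

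The nuclear IkappaB proteins are known to act on gene promoters rather than to hold NF-kappaB in the cytoplasm. Bcl3 (chromosome 7, 19808462 to 19822824) encodes a cofactor of p50 and p52 pairs. It was at 1.14, 0.753 and 1.26 CPM in the untreated mice and 5.50, 3.91 and 6.21 CPM in the Dox mice. Every Dox mouse lay far above the highest untreated mouse. The log2 fold change was 2.31 ± 0.27 (edgeR adjusted p = 0.00036), or 4.95-fold, from 25 to 38 counts per untreated mouse to 176 to 270 per Dox mouse. Relb, which lies 179 kb from Bcl3 on the same chromosome, did not pass as given above.

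Nfkbid (chromosome 7, 30421731 to 30428749) encodes IkappaB-NS, a nuclear member known to be induced by antigen receptor signals. It was at 8.95, 7.53 and 9.45 CPM in the untreated mice and 15.7, 11.7 and 14.1 CPM in the Dox mice. The groups were apart, with Dox mouse 2 again the lowest of its group, and the log2 fold change was 0.68 ± 0.15 (edgeR adjusted p = 0.0056). Nfkbiz, which encodes the remaining nuclear member IkappaB-zeta and is not among the 10, went from 4.33 ± 0.504 to 14.0 ± 2.19 CPM, a rise of 1.69 ± 0.16 log2 units (edgeR adjusted p = 0.00015).

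Tnfaip3 (chromosome 10, 19000910 to 19015410) encodes A20, a ubiquitin-editing enzyme that is induced by NF-kappaB and shuts off signalling to IKK. It was at 46.0, 62.0 and 53.3 CPM in the untreated mice and at 101.5, 100.2 and 87.2 CPM in the Dox mice, with every Dox mouse well above the highest untreated mouse. The log2 fold change was 0.84 ± 0.11 (edgeR adjusted p = 0.0007), or 1.79-fold.

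The other genes of the pathway were followed in lists by role. Of 123 tested genes that are on a list and not among the 10, 61 were higher and 17 lower, with a median log2 fold change of 0.32, beside 24.8% higher and 25.2% lower among all tested genes. In the antigen receptor arm, which couples the T-cell receptor to IKK, 9 of 10 tested genes were higher and 0 lower, with a median of 0.38. Malt1, a protease and adaptor, and Bcl10, its adaptor partner, both rose, with log2 fold changes of 0.60 ± 0.07 and 0.33 ± 0.07 (adjusted p of 0.0004 and 0.0054 with edgeR). Malt1 went from 41.0 ± 2.44 to 62.2 ± 2.02 CPM. Prkcq, a kinase that carries the T-cell receptor signal towards IKK, and Map4k1, a kinase that restrains receptor signalling, rose by 1.11 ± 0.08 and 0.48 ± 0.07.

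Of 13 genes of the IKK complex and its upstream kinases, 8 were higher and 0 lower, with a median of 0.27. The shares over all tested genes were 24.8% and 25.2%. All subunits of IKK itself rose slightly: Ikbkb, the catalytic subunit of the classical branch, by 0.42 ± 0.07, Ikbkg, the regulatory subunit NEMO, by 0.33 ± 0.08, and Chuk, the catalytic subunit of the non-canonical branch, by 0.27 ± 0.08 (edgeR adjusted p = 0.0015, 0.0068 and 0.024). Chuk did not pass without untreated mouse 2, untreated mouse 3 or Dox mouse 1 (adjusted p = 0.109, 0.068 and 0.078). The largest rise of the list's named genes was that of Ikbke, an IKK-related kinase, by 1.31 ± 0.14 from 37.6 ± 4.65 to 93.0 ± 16.0 CPM. Map3k14, encoding NIK, the kinase of the non-canonical branch, rose by 0.59 ± 0.10 (edgeR adjusted p = 0.0018), while Nfkb2 in the same branch fell. Map3k7, encoding TAK1, rose by 0.40 ± 0.07.

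In the list of other IkappaB proteins and negative regulators, 8 of 17 tested genes were higher and 3 lower, beside 24.8% and 25.2% of all tested genes. This list includes Nfkbiz and Nfkbib, given above. Cyld, a deubiquitinase that opposes IKK activation, rose by 0.76 ± 0.08 from 84.7 ± 6.01 to 143 ± 11.0 CPM, and Itch, a ubiquitin ligase that works with A20, by 0.56 ± 0.07 (edgeR adjusted p = 0.00027 and 0.00054). Nlrc3, which dampens signalling through TRAF proteins, rose by 1.10 ± 0.08. In the list of TRAF, cIAP and ubiquitin ligase genes 8 of 18 were higher and 3 lower, with a median of 0.11. The number lower was 1 without untreated mouse 1 or 2 or without any 1 Dox mouse, and 5 were higher without untreated mouse 2. The cIAP genes Birc3, itself a commonly cited target, and Birc2 rose by 0.90 ± 0.09 and 0.62 ± 0.08, and Traf3ip3 by 0.88 ± 0.11. Cul1, a scaffold of the ligase that marks IkappaB for destruction, fell by 0.42 ± 0.08 log2 units.

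**Figure D5:**
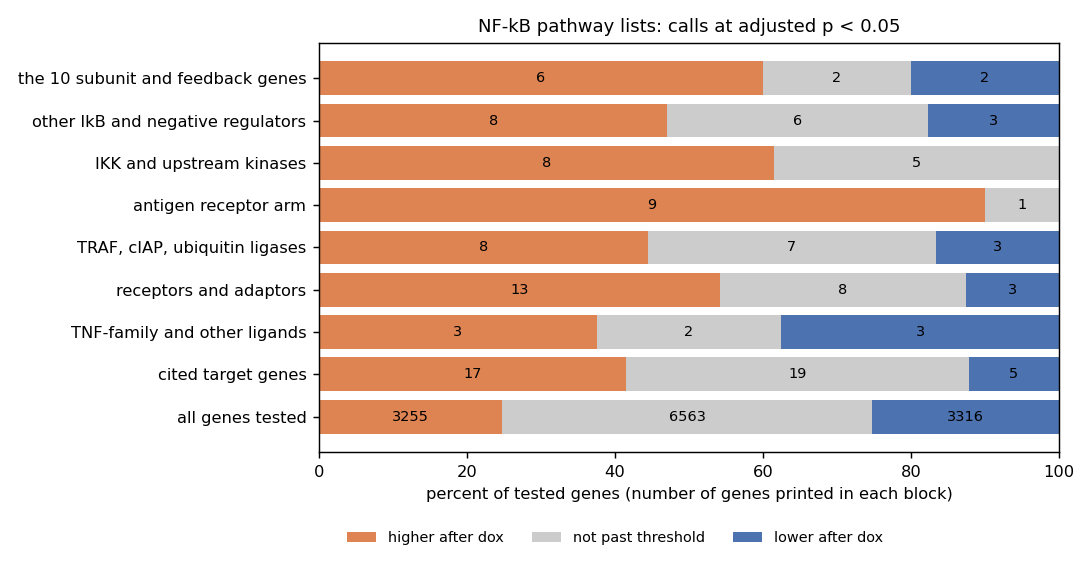
Percent of the tested genes of each list that were higher (orange), not past the threshold (grey) or lower (blue) after Dox at an edgeR adjusted p under 0.05, with the number of genes printed in each block. The antigen receptor arm (9 of 10 higher) and the IKK list (8 of 13 higher) have no lower gene, whereas all tested genes divide into 3255 higher and 3316 lower.

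Of 24 tested receptors and adaptors that signal to NF-kappaB, 13 were higher and 3 lower, with a median of 0.56. Among all tested genes 24.8% were higher and 25.2% lower. The costimulatory receptors Cd28 and Cd27 rose by 1.65 ± 0.18 and 1.11 ± 0.07 log2 units, and Irak4, a kinase of the Toll and interleukin-1 receptor branch, by 0.70 ± 0.09. Tnfrsf8, encoding CD30, fell by 1.44 ± 0.13 from 101.2 ± 8.02 to 37.3 ± 6.34 CPM (edgeR adjusted p = 0.00014). Of 8 tested ligand genes 3 were higher and 3 lower. Ltb, encoding lymphotoxin beta, rose by 1.20 ± 0.11 and Tnfsf14, encoding LIGHT, by 0.73 ± 0.14, whereas Tnfsf8, encoding the ligand of CD30, fell by 1.55 ± 0.26 and Tnfsf11, encoding RANKL, fell by 4.02 ± 0.35 log2 units (edgeR adjusted p = 0.00013, 0.0032, 0.0016 and 0.00012). For Tnfsf11 the mean level was 8.38 ± 1.37 CPM untreated and 0.514 ± 0.272 CPM with Dox. The ligand and the receptor of the CD30 pair thus fell together.

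Commonly cited NF-kappaB target genes moved both ways, with 17 of 41 tested higher, 5 lower and 19 not past the threshold (median 0.29). The share not past, 46.3%, was near the 50% of all tested genes. The split by direction was 41.5% higher and 12.2% lower, against 24.8% and 25.2% of all tested genes. Besides Birc3, Nfkbiz and Ltb, given above, the gene of this list with the smallest p was Fth1, the ferritin heavy chain, which went from 489.9 ± 36.9 to 299 ± 13.8 CPM and so fell by 0.71 ± 0.08 on the log2 scale (edgeR adjusted p = 0.00024). The target genes are also controlled by many other factors, and the list is one of common citation and not of binding measured in these cells.

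The genes whose log2 CPM ran closest to Bcl3 over the 6 mice were Tnfrsf4, Rab22a and Pitpnc1 (Pearson r = 0.9973, 0.9970 and 0.9967), and for Nfkb2 they were Dnph1, Serbp1 and Nup133 (r = 0.9999, 0.9994 and 0.9986). The 6 points are 2 groups of 3 mice, so the gap between the groups enters every such r, and 695 genes had r of at least 0.95 with Bcl3 and 1293 with Nfkb2.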

How the data were processed

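The authors deposited raw read counts per Entrez gene with a gene length, 1 table per library and 1 for the series; the tables agreed for 12 of 12 libraries. The submitters' processing notes name CASAVA 1.8.1, featureCounts and mm10. Aligner, annotation, strand setting and handling of multiply matching reads: not given in the sources used here. Of 27179 identifiers, 25293 received a symbol from RefSeq (GRCm38.p6) or GENCODE, and all stayed in the totals. Both runs of a mouse were added together, and n counts mice. edgeR 4.0.16 (R 4.3.3; filterByExpr, TMM, robust quasi-likelihood F test, no block) compared the groups over 13134 genes, with Benjamini-Hochberg adjustment at 0.05. Each SE was derived from the fold change and its F statistic (|log2 fold change| / √F). Each mouse had 29904744 to 44949303 counts, so that 3 counts, the limit for a gene with none, equal 0.0666 to 0.1006 CPM (counting error only). Shares and ratios used counts per gene length and exact permutation tests (scipy 1.17.1). The tests were checked on simulated counts, where the direction of recovered changes was right and false calls were more frequent than the nominal rate, most of all with DESeq2. The simulation changed a far smaller share of genes than was called in these data, so its rate of false calls does not carry over. Alternatives were other size factors, filters, DESeq2 1.42.0, limma-voom (limma 3.58.1), single runs, a replicate block and leaving out mice.

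The members, lists, tests and naming rule were chosen with earlier results of these data known. Named besides the 10 genes were Ikzf1, the called genes with the 4 smallest p per list (at least 1 CPM in the higher group), the IKK subunits, Bcl10, Malt1, Nfkbib, Nfkbiz and the 3 genes most correlated with the largest rise and fall; some genes the rule names are not reported here. Nothing in the labels says that mice sharing a replicate number are related, and the main test did not pair them.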

Additional observations from a re-analysis of the deposited data

How the results depend on the processing

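Over 19 alternatives of the gene test (other size factors, filters and tools, single runs, the block, left-out mice), 6 of the 10 genes were higher in each. The number lower was 2, except 1 without untreated mouse 2, when Nfkb1 missed the threshold; leaving out single mice thus gave 1 to 2. No other call among the 10 changed. The count over all genes ran from 4869 to 7421, and from 4869 to 6281 when single mice were left out. With the replicate number as a block, 6259 genes were called and the members' counts stayed at 6 and 2. Deviations of same-numbered mice correlated at 0.156, -0.012 and -0.103, and those of differently numbered mice at -0.191 to 0.168. With 3 mice per group, such correlations cannot show whether mice were matched. Without both untreated mouse 3 and Dox mouse 2, 6 and 2 were called, and Bcl3 was at 2.64 log2 units. The differences in subunit shares and in the inhibitor ratio kept their sign in all 9 alternatives, but tests of 3 against 3 mice cannot go below 0.1. Nfkbib turned from -0.06 to 0.01 with run 1 alone and without Dox mouse 1; leaving out single mice gave -0.10 to 0.01. The IKK list had 1 lower gene in 3 alternatives (quality weights, without Dox mouse 2, without the pair above). Depth limits Rel, Relb and Bcl3 most, at 25 to 288 counts per mouse.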
